A study of Mus musculus with 6 samples.

Results

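The genes described here encode 9 enzymes or enzyme subunits that carry pyruvate carbon into and around the tricarboxylic acid cycle. They are Pdha1, Cs, Idh3a, Idh2, Ogdh, Dlst, Suclg1, Fh1 and Mdh2, found by symbol among the 24786 gene symbols of the deposited counts, and all 9 had enough counts to be tested. RNA was sequenced from wild-type (WT) mouse intestinal organoids, cultured epithelial structures grown from gut stem cells. A 10 min dissociation to single cells was followed by 16 h with 100 µM tyramine, an amine that gut bacteria make from tyrosine (3 libraries), or under control conditions (3 libraries). Control titles give DMSO where the design text gives control medium, and the sources used here do not say whether DMSO was also in the tyramine cultures. The labels do not say that the 3 libraries of a group are separate mice or cultures, so a p-value covers library-to-library spread only, and that spread may be technical.

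The cycle runs in the mitochondrial matrix. Pyruvate dehydrogenase turns pyruvate into acetyl-CoA, citrate synthase joins acetyl-CoA to oxaloacetate, and the later steps oxidise the carbon to carbon dioxide while passing electrons to the respiratory chain. In the intestinal epithelium the cycle is fed by glutamine, glucose and fatty acids, and it supplies both differentiated absorptive cells and dividing progenitors with energy and with citrate for lipid synthesis.

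Each of the 9 genes fell in the tyramine libraries, and 0 rose. Over all 12139 genes tested, 13.3% fell and 12.5% rose (25.8% either way) by the same test. It was the quasi-likelihood test of edgeR, with calls at a Benjamini-Hochberg adjusted p under 0.05. The 9 genes were chosen with earlier results of these data known, so setting them beside all genes is a description and no test. The median log2 fold change (tyramine over control) was -0.67 for the 9 genes, with a range of -2.30 for Idh2 to -0.47 for Dlst, and 0.0041 for all genes tested. In all 9 genes every tyramine library lay below every control library in CPM, the count scaled for library size, an arrangement held by 23.6% of all genes tested. Their summed level was 2160, 2180 and 1993 CPM in tyramine replicates 1, 2 and 3, against 3469, 3214 and 3292 CPM in control replicates 1, 2 and 3. In bulk RNA, fewer cells of a type and less RNA per cell cannot be told apart.

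**Figure D1:**
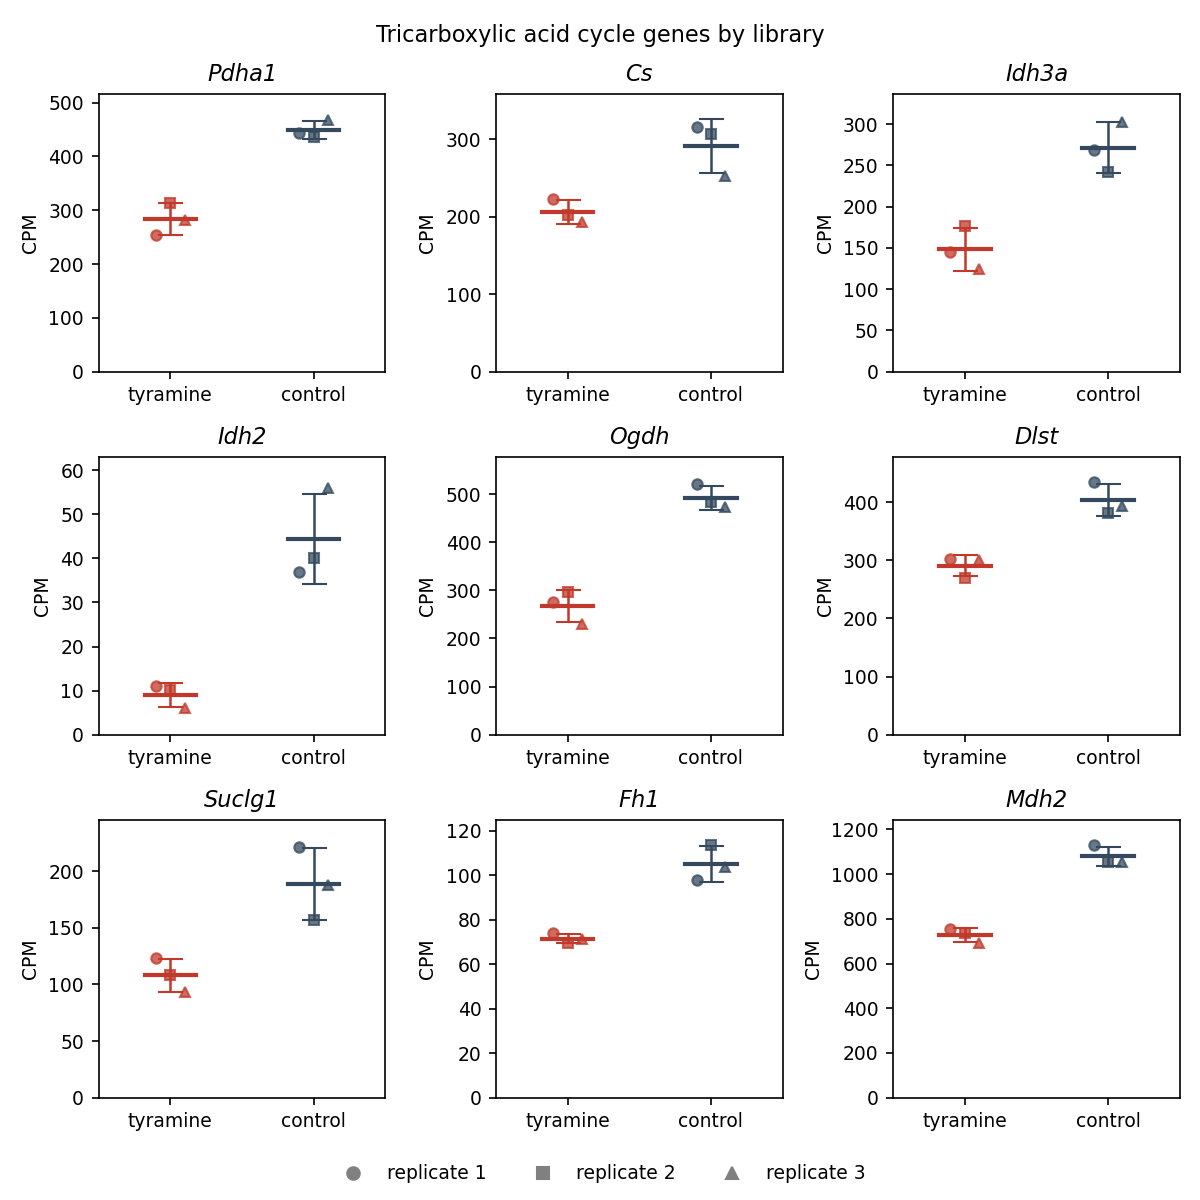
CPM of the 9 cycle genes in each library, with tyramine left of control in each panel; points are libraries with the replicate given by shape, horizontal bars are group means and error bars are 1 SD (n = 3 per group). In every panel the 3 tyramine libraries lie below the 3 control libraries, with the widest relative gap for Idh2 (mean 9.02 against 44.3 CPM).

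The promoters of the gene that fell furthest (Idh2), the gene nearest to the mean profile of the 9 (Ogdh) and the gene that fell least (Dlst) are printed here as examples. Each is taken from the 250 bases before the RefSeq start, 5′ to 3′ on the gene's strand, on GRCm38.p6. Symbols matched for 8 of the 9 genes, all but Idh3a, and for Ogdh the first of 6 starts was used. For Idh2 the 208 bases outside the GENCODE gene are shown. Capitals mark CCAAT and TGACGT (the core of a cAMP response element) on either strand, both added after the sequences had been read, and overlapping matches run together.
Idh2 promoter (chr7:80115393-80115600, minus strand): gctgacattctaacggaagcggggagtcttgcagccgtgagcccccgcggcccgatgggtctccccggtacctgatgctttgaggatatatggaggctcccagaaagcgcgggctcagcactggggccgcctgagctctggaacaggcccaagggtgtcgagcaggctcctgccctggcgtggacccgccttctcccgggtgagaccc
Ogdh promoter (chr11:6291347-6291596, plus strand): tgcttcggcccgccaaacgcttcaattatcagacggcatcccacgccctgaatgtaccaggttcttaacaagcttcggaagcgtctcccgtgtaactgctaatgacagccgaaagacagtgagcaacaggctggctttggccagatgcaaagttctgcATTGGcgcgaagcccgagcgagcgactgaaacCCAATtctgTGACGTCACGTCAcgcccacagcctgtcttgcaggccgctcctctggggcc
Dlst promoter (chr12:85110583-85110832, plus strand): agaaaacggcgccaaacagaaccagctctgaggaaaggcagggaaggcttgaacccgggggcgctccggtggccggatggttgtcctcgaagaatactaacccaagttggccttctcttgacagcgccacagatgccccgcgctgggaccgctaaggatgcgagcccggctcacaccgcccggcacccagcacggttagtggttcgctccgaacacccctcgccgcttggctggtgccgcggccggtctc
Over the full windows of the 8 genes, TGACGT was held by Ogdh and Mdh2, against 6.47% of all 32851 windows of that length. In the Mdh2 window only 81 of the 250 bases lie outside the GENCODE gene, and its TGACGT matches lie inside that gene. For Suclg1, 127 of the 250 bases lie outside its gene. CCAAT was held by Cs, Idh2 (across the end of the stretch shown, and so not in capitals), Ogdh and Fh1, against 33.8% of all windows. Dlst, Pdha1 and Suclg1 held neither. The other motifs searched on both strands were AAGGTCA for estrogen-related receptors, CCGGAAG for ETS factors, GCATGCG for NRF1 and CACGTG for E-box factors. None of the 8 windows held any of these letters, and 4.08%, 6.91%, 3.02% and 6.02% of all windows did. A match or its absence describes letters in these windows only.

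Entry of carbon into the cycle is represented by Pdha1 and Cs. Pdha1, the catalytic alpha subunit of pyruvate dehydrogenase (GRCm38 chromosome X, 160122209 to 160138413, minus strand), had 254, 314 and 282 CPM in tyramine replicates 1, 2 and 3, against 444, 436 and 468 CPM in control replicates 1, 2 and 3. The control libraries lay close together and the tyramine libraries spread more, without overlap. The mean was 283 ± 29.8 CPM with tyramine and 449 ± 16.7 CPM in controls (SD, n = 3 each), a 1.59-fold fall (log2 fold change -0.67 with SE 0.102; edgeR adjusted p = 0.00115). Cs, citrate synthase (chromosome 10, 128337734 to 128362479, plus strand), had 222.5, 202 and 193 CPM in the tyramine replicates, against 315, 306 and 252 CPM in the control replicates. Control replicate 3 stood lowest of the controls and was still above all tyramine libraries. Cs fell 1.41-fold (log2 fold change -0.50 with SE 0.116; edgeR adjusted p = 0.0106). That call was lost without control replicate 1 (log2 fold change -0.45, edgeR adjusted p = 0.0571) or control replicate 2 (-0.47, edgeR adjusted p = 0.057).

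Of the other 4 pyruvate dehydrogenase genes, Dlat fell, and Pdhb, Pdhx and Dld did not pass the threshold. Dlat, the lipoyl-bearing acetyltransferase core, fell 2.57-fold (30.8, 34.4 and 15.6 CPM in the tyramine replicates, against 66.0, 67.3 and 74.3 CPM in the control replicates; edgeR adjusted p = 0.00494). Pdhb, the beta subunit that pairs with Pdha1, had a 95% interval of its log2 fold change of -0.28 to 0.66, and its mean was 45.1 ± 8.23 CPM with tyramine and 39.5 ± 6.19 CPM in controls (SD, n = 3 each). Pdhx, the component that anchors the shared lipoamide dehydrogenase, had an interval of -0.42 to 0.36. Dld, that lipoamide dehydrogenase, which alpha-ketoglutarate dehydrogenase also uses, had an interval of -0.43 to -0.013 and an edgeR adjusted p of 0.115, and it passed when libraries were scaled to their totals alone (log2 fold change -0.31, edgeR adjusted p = 0.028). The ratio of Pdha1 to Pdhb in CPM was 5.495, 8.64 and 5.35 in the tyramine replicates, against 13.7, 10.5 and 10.6 in the control replicates. The two-sided exact permutation p of that ratio was 0.1, the smallest possible, and 0.162 after adjustment over 13 ratios.

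Between citrate and alpha-ketoglutarate, Idh2 fell furthest of the 9 genes. Idh2, the mitochondrial isocitrate dehydrogenase that makes NADPH (chromosome 7, 80094846 to 80115392, minus strand), had 10.9, 10.1 and 5.99 CPM in tyramine replicates 1, 2 and 3, against 36.9, 40.2 and 55.9 CPM in control replicates 1, 2 and 3. Tyramine replicate 3 was the lowest and control replicate 3 the highest, and the spread was wide in both groups, with a coefficient of variation of 29.5% with tyramine and 23.0% in controls. The fall was 4.91-fold (log2 fold change -2.30 with SE 0.301; edgeR adjusted p = 0.000463). Its 95% interval, -2.97 to -1.62 on the log2 scale, lay below the intervals of the other 8 genes, the lowest bound of which was -1.19 for Idh3a.

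Idh3a, the catalytic subunit of the NAD-dependent isocitrate dehydrogenase that drives the cycle itself (chromosome 9, 54586334 to 54604661, plus strand), had 145, 176 and 125 CPM in the tyramine replicates, against 269, 242 and 303 CPM in the control replicates. Its groups were separated by the gap between 176 and 242 CPM, and it was 1.83-fold lower (log2 fold change -0.87 with SE 0.143; edgeR adjusted p = 0.00174). Of its companion subunits, Idh3b fell 1.45-fold (edgeR adjusted p = 0.0114, but 0.0537 without control replicate 1 and 0.0577 without control replicate 2). Idh3g, the regulatory gamma subunit, did not pass, with 23.0, 46.7 and 27.9 CPM in the tyramine replicates and 34.6, 40.0 and 52.7 CPM in the control replicates, which overlap.

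The balance of the isocitrate dehydrogenase transcripts was set side by side within each library. The CPM ratio of Idh2 to Idh3a was 0.0757, 0.0575 and 0.0481 in the tyramine replicates, against 0.137, 0.166 and 0.185 in the control replicates. The ratio of Idh2 to its cytosolic counterpart Idh1 was 0.0170, 0.0138 and 0.0105 in the tyramine replicates, against 0.0596, 0.0698 and 0.105 in the control replicates. Neither ratio overlapped between the groups. With 3 libraries against 3 the two-sided exact permutation test of a log ratio cannot go below p = 0.1, which both reached; over the 13 ratios computed the Benjamini-Hochberg adjusted exact p was 0.162. Idh1 itself did not pass the threshold and averaged 649 ± 82.2 CPM with tyramine and 576.5 ± 42.2 CPM in controls (SD, n = 3 each). Ratios of Idh3a to Cs, Idh3b and Idh3g overlapped between the groups (two-sided exact permutation p = 0.3, 0.2 and 0.3). That of Idh2 to Cs did not (two-sided exact permutation p = 0.1, adjusted 0.162).

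**Figure D2:**
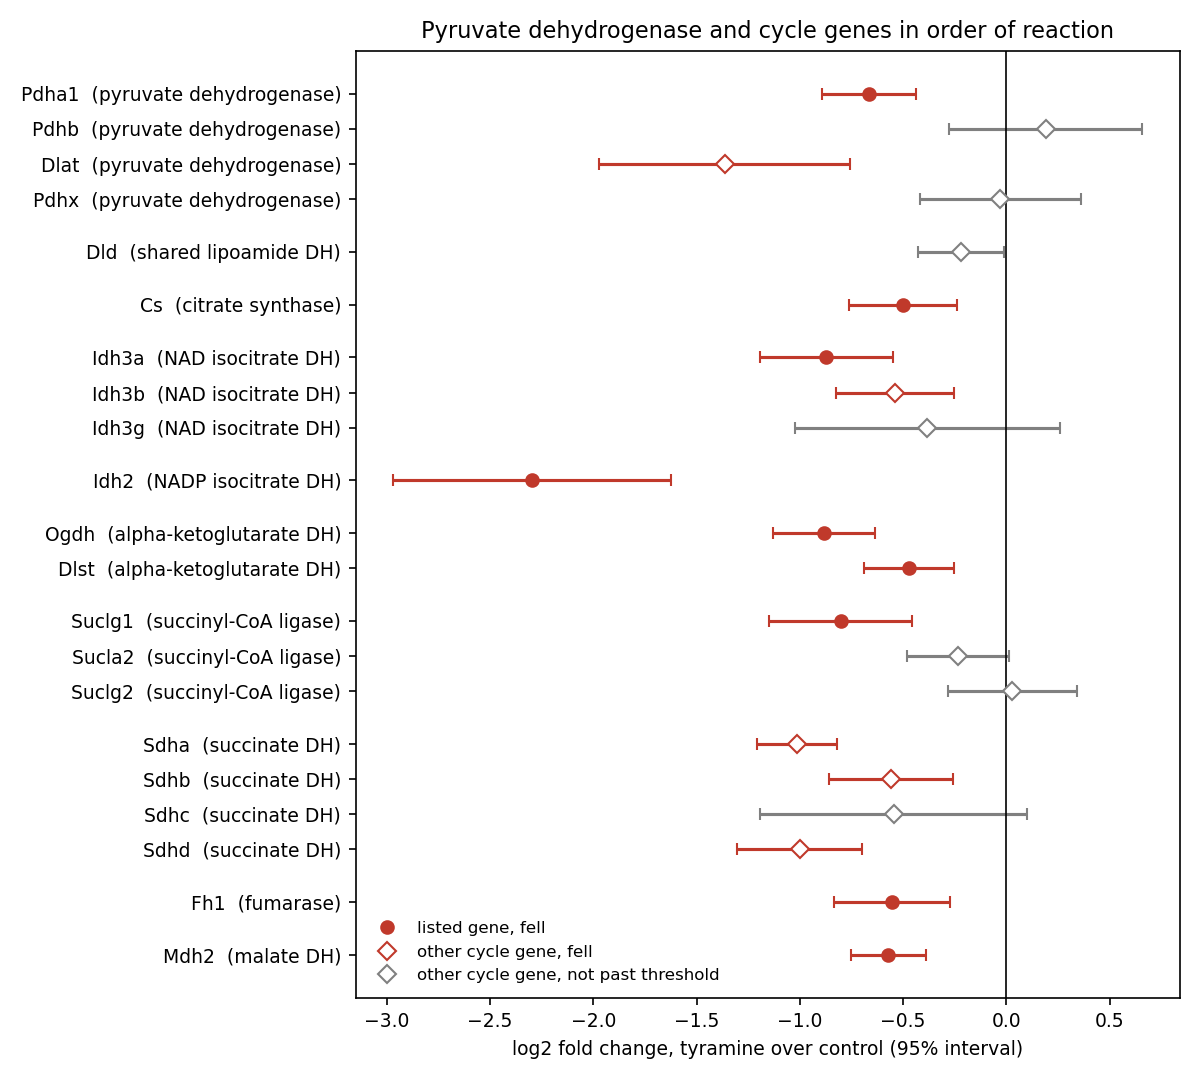
Log2 fold change of tyramine over control, with its 95% interval, for 21 genes of pyruvate dehydrogenase and the cycle, from the first reaction at the top to the last at the bottom; filled circles are the 9 listed genes, open diamonds the other subunits, and red marks genes that fell. Idh2 lies furthest to the left at -2.30, and Pdhb lies furthest to the right at 0.19.

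Conversion of alpha-ketoglutarate to succinate involves Ogdh, Dlst and Suclg1. Ogdh, the decarboxylating subunit of alpha-ketoglutarate dehydrogenase (chromosome 11, 6291633 to 6356642, plus strand), had 275, 296 and 230.4 CPM in tyramine replicates 1, 2 and 3, against 521, 484 and 473 CPM in control replicates 1, 2 and 3. Its fall was 1.84-fold (log2 fold change -0.88 with SE 0.111; edgeR adjusted p = 0.000351), the smallest adjusted p of the 9 genes. Dlst, the succinyltransferase core of the same complex (chromosome 12, 85110833 to 85134845, plus strand), had 302, 269 and 301 CPM in the tyramine replicates, against 435, 381 and 394 CPM in the control replicates. Its groups also did not overlap, and its 1.39-fold fall was the smallest of the 9 (log2 fold change -0.47 with SE 0.0976; edgeR adjusted p = 0.006). The CPM ratio of Ogdh to Dlst was 0.911, 1.10 and 0.766 in the tyramine replicates, against 1.197, 1.27 and 1.202 in the control replicates (two-sided exact permutation p = 0.1, the smallest possible; adjusted 0.162).

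Suclg1, the alpha subunit shared by both forms of succinyl-CoA ligase (chromosome 6, 73248382 to 73276911, plus strand), had 123, 108 and 93.5 CPM in the tyramine replicates, against 221, 157 and 188 CPM in the control replicates. The groups did not overlap although the controls spread widely, and Suclg1 fell 1.74-fold (log2 fold change -0.80 with SE 0.154; edgeR adjusted p = 0.00406). Neither beta subunit passed the threshold: the log2 fold change of Sucla2, of the ADP-forming enzyme, had a 95% interval of -0.48 to 0.014, and that of Suclg2, of the GDP-forming enzyme, had an interval of -0.28 to 0.34. The ratio of Suclg1 to Suclg2 was 1.36, 1.12 and 0.994 in the tyramine replicates, against 2.87, 1.58 and 1.90 in the control replicates. This ratio and that of Suclg1 to Sucla2 did not overlap between the groups (two-sided exact permutation p = 0.1 each, adjusted 0.162). That of Suclg2 to Sucla2 overlapped (two-sided exact permutation p = 0.3). Succinate dehydrogenase, which oxidises succinate and is also respiratory complex II, had 3 of 4 subunits that fell. Sdha, the flavin subunit, fell 2.02-fold, Sdhd, a membrane anchor, fell 2.00-fold (edgeR adjusted p = 3.09e-05 and 0.000553), and Sdhb, the iron-sulfur subunit, fell 1.47-fold (edgeR adjusted p = 0.013, but 0.0681 without control replicate 2 and 0.0617 without control replicate 3). Sdhc, the other anchor, had 78.2, 49.9 and 29.9 CPM in the tyramine replicates and 68.7, 81.6 and 80.4 CPM in the control replicates, and passed only when tyramine replicate 1 was left out (log2 fold change -0.94, edgeR adjusted p = 0.0248).

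The closing steps of the cycle are those of Fh1 and Mdh2. Fh1, fumarase (chromosome 1, 175600374 to 175625635, minus strand), had 73.8, 69.5 and 71.3 CPM in tyramine replicates 1, 2 and 3, against 97.7, 114 and 104 CPM in control replicates 1, 2 and 3. The tyramine libraries were the tightest of any of the 9 genes, with a coefficient of variation of 3.03%. Fh1 fell 1.47-fold (log2 fold change -0.55 with SE 0.127; edgeR adjusted p = 0.00992), and the call was lost without control replicate 2 (log2 fold change -0.50, edgeR adjusted p = 0.0634). Mdh2, mitochondrial malate dehydrogenase, which regenerates oxaloacetate (chromosome 5, 135778480 to 135790398, plus strand), had 753, 735 and 691.5 CPM in the tyramine replicates, against 1130, 1053 and 1056 CPM in the control replicates. It fell 1.49-fold (log2 fold change -0.57 with SE 0.0809; edgeR adjusted p = 0.000716) and made up 33.7% to 34.9% of the summed CPM of the 9 genes with tyramine and 32.1% to 32.8% in controls. The ratio of Fh1 to Mdh2 overlapped between the groups, with 0.0980, 0.0946 and 0.103 in the tyramine replicates and 0.0864, 0.108 and 0.0981 in the control replicates (two-sided exact permutation p = 1).

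Together with the 9 listed genes, 12 further subunits and enzymes of pyruvate dehydrogenase and the cycle were examined. Of these 12, Dlat, Idh3b, Sdha, Sdhb and Sdhd fell (5 genes), 0 rose and 7 did not pass. Over all genes tested, 13.3% fell and 12.5% rose. The median log2 fold change of the 12 genes was -0.46. The count of the 12 that fell was 4 without control replicate 1 or 3 and 3 without control replicate 2. In all, 14 of 21 genes fell and 0 rose. The listed genes and the other subunits were not drawn at random, and no test of the difference between their counts was made.

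Levels were compared between genes per kilobase of exon, using the union of annotated exons, which can exceed the length of any single transcript. With tyramine the order was Mdh2, Pdha1, Ogdh, Cs, Dlst, Idh3a, Suclg1, Fh1 and Idh2; in controls it was Mdh2, Pdha1, Ogdh, Idh3a, Cs, Dlst, Suclg1, Fh1 and Idh2. Mdh2 had 204 ± 8.92 CPM per kilobase with tyramine and 303 ± 12.2 in controls, and Idh2 had 3.49 ± 1.03 with tyramine and 17.1 ± 3.93 in controls (SD, n = 3 each). The top 3 and Idh2 were separated from their neighbours in every library of a group. Neighbours overlapped in the run of Dlst, Idh3a, Suclg1 and Fh1 with tyramine and in the run of Idh3a, Cs, Dlst and Suclg1 in controls. Ranks within those runs are not resolved. With tyramine, Cs did not overlap Dlst but did overlap Idh3a (lowest Cs library 33.4, highest Idh3a library 34.7), so that order is not resolved either. Idh3a stood in place 6 with tyramine and in place 4 in controls.

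**Figure D3:**
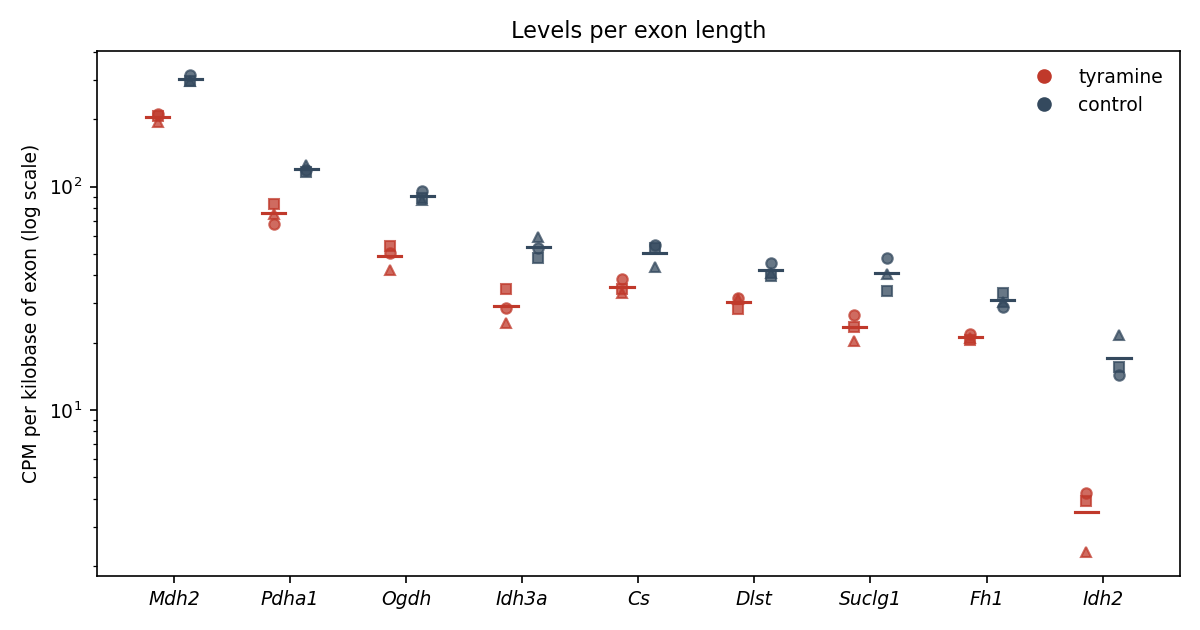
CPM per kilobase of exon (log scale) of the 9 cycle genes in each library, in the order of the control means, with tyramine left of control; shapes are replicates as in the plot of CPM by library and bars are means. Mdh2 is highest and Idh2 lowest in both groups.

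The libraries did not share a common order across the 9 genes. Tyramine replicate 3 held the lowest tyramine value for 6 of the 9 genes and the highest for 0, and tyramine replicate 1 held the highest for 6. Among controls, replicate 1 held the highest value for 5 genes and replicate 2 the lowest for 5. Leaving out any 1 tyramine library kept all 9 calls, while 8 genes fell without control replicate 1, 7 without control replicate 2 and 9 without control replicate 3. Over all genes tested, the number that fell was 1609 with all libraries, and 1035, 1043 and 1055 without control replicates 1, 2 and 3. The number that rose was 1518 with all libraries, and 960 and 934 without control replicates 1 and 2.

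**Figure D4:**
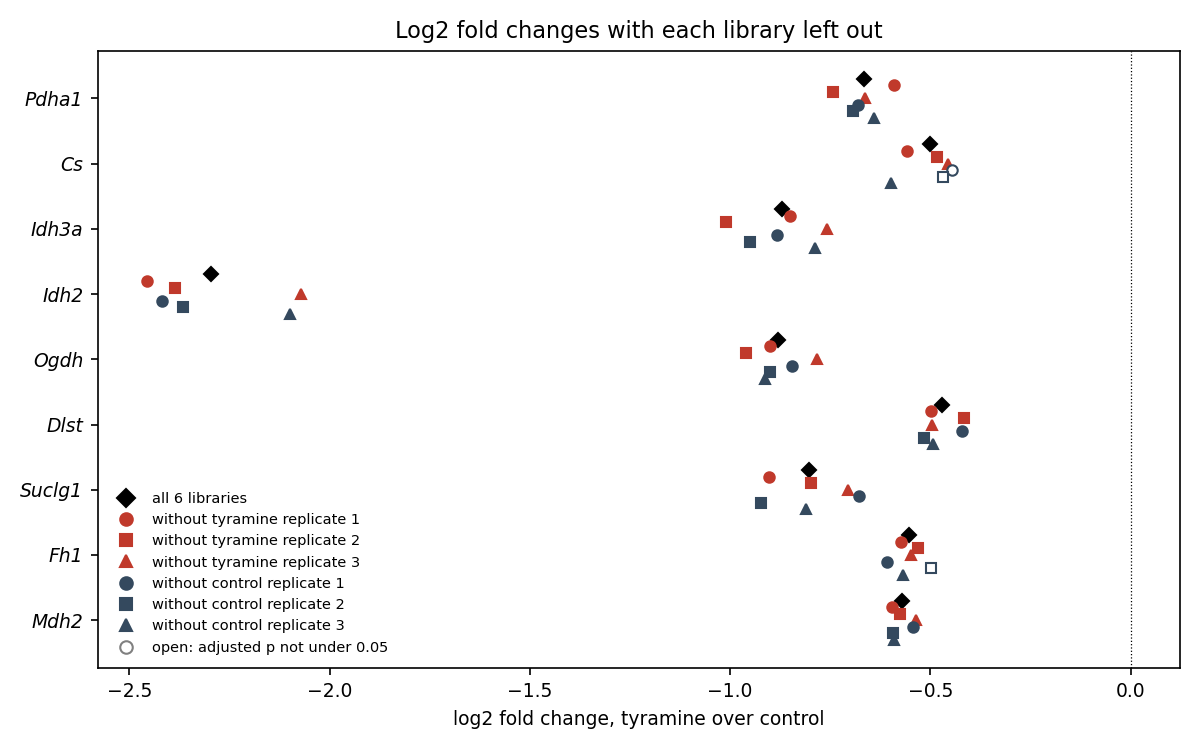
Log2 fold change of tyramine over control for the 9 cycle genes with all 6 libraries (black) and with each library left out (red for tyramine, dark blue for control, shapes for replicates); open symbols mark an adjusted p not under 0.05. All values are below 0, and the open symbols are Cs without control replicate 1 or 2 and Fh1 without control replicate 2.

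Of 9 genes that control pyruvate entry, Pdk4 and Pdk1, kinases that switch pyruvate dehydrogenase off, fell, 0 rose and 7 did not pass. The kinases Pdk2 and Pdk3 and the pyruvate carrier genes Mpc1 and Mpc2 were among the 7. The median log2 fold change of the 9 was -0.62. Over all genes tested, 13.3% fell and 12.5% rose. Pdk4 had 0.918, 1.57 and 2.89 CPM in tyramine replicates 1, 2 and 3, against 19.8, 22.4 and 21.7 CPM in control replicates 1, 2 and 3, an 11.9-fold fall (edgeR adjusted p = 0.000477). Pdk1 had 11.6, 0.849 and 8.60 CPM in the tyramine replicates, against 33.1, 29.5 and 32.7 CPM in the control replicates. Tyramine replicate 2 stood far below the other tyramine libraries. The Pdk1 call (log2 fold change -2.18, edgeR adjusted p = 0.0416) was lost without control replicate 1, 2 or 3 (edgeR adjusted p = 0.117, 0.0953 and 0.117), without tyramine replicate 3 (0.0503) and under both other filters on low counts. Among 12 genes of lipoic acid attachment and iron-sulfur or complex II assembly, which the dehydrogenases and succinate dehydrogenase need, 0 passed, and the median log2 fold change was -0.19. With library totals alone, DESeq2 or limma-voom 1 fell, and without tyramine replicate 1, 1 fell and 1 rose. Isca1, an iron-sulfur assembly factor with the smallest p of that group, averaged 17.7 ± 7.33 CPM with tyramine and 31.9 ± 2.91 CPM in controls (SD, n = 3 each; edgeR adjusted p = 0.0648, against 0.0474 with library totals alone and 0.00782 without tyramine replicate 1; adjusted p = 0.0337 with DESeq2 and 0.0253 with limma-voom).

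Among genes that add or draw off cycle intermediates, 3 of 12 tested fell, 0 rose and 9 did not pass (median log2 fold change -0.69). Over all genes tested, 13.3% fell and 12.5% rose. Oat, ornithine aminotransferase, fell to 66.9, 67.6 and 102 CPM in the tyramine replicates, against 350.6, 349.9 and 350.5 CPM in the control replicates (log2 fold change -2.15 with SE 0.165; edgeR adjusted p = 1.34e-05). Aldh18a1, which makes the precursor of proline and ornithine from glutamate, fell 5.498-fold, and Pcx, pyruvate carboxylase, fell 2.09-fold (edgeR adjusted p = 0.000166 and 0.00626). DESeq2, limma-voom and the fit with a replicate block each called 5 of these genes. Of 7 tested inner membrane carriers, most of them for cycle intermediates or the amino acids exchanged with them, 6 fell and 0 rose (median log2 fold change -1.01). Slc25a10, the dicarboxylate carrier, fell 3.04-fold, Slc25a12 and Slc25a13, the aspartate-glutamate carriers of the malate-aspartate shuttle, fell 2.15-fold and 2.01-fold, and Slc25a1, the citrate carrier, fell 1.52-fold. Slc25a11 had the largest fall of the 6, 3.25-fold (edgeR adjusted p = 0.0197), with 23.3, 10.9 and 5.15 CPM in the tyramine replicates. Slc25a20, which carries acylcarnitines and no cycle intermediate, is also among the 6 (edgeR adjusted p = 0.0446). Without control replicate 1 or 2, 2 of these carriers fell, and 4 without control replicate 3.

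In the cytosol, counterparts of the cycle enzymes moved both ways. Of 7 genes, 3 fell, 2 rose and 2 did not pass (median log2 fold change -0.57). Over all genes tested, 13.3% fell and 12.5% rose. Mdh1, cytosolic malate dehydrogenase, had 68.8, 56.0 and 58.0 CPM in the tyramine replicates, against 264, 255 and 215 CPM in the control replicates, a 4.01-fold fall (edgeR adjusted p = 6.46e-06). The ratio of Mdh2 to Mdh1 was 10.95, 13.1 and 11.9 in the tyramine replicates, against 4.28, 4.13 and 4.91 in the control replicates (two-sided exact permutation p = 0.1, the smallest possible; adjusted 0.162). Got1 fell 1.87-fold and Aco1 1.48-fold. Me1, the NADPH-making malic enzyme, rose 2.02-fold (edgeR adjusted p = 0.000598), and Acly, ATP citrate lyase, rose with an edgeR adjusted p of 0.0467. With RLE factors, library totals alone, no filter, a replicate block, or without any 1 of the controls or tyramine replicate 2 or 3, 1 of the 7 genes rose. Without control replicate 1, 1 fell, with Got1 and Aco1 lost (edgeR adjusted p = 0.0571 and 0.0585), and without control replicate 3, 2 fell, with Aco1 lost (edgeR adjusted p = 0.0572).

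Mitochondrial genes outside the cycle gave a measure of the surrounding level. The 14 genes taken were of outer membrane channels, protein import, matrix chaperones and inner membrane scaffolds. Of these, 4 fell (Vdac2, Phb2, Hspd1 and Timm44), 0 rose and 10 did not pass, with a median log2 fold change of -0.33. In 8 of the 14, every tyramine library lay below every control library, an arrangement held by 23.6% of all genes tested. Over all genes tested, 13.3% fell and 12.5% rose. Scaled to library totals alone, 7 fell, and the Timm44 call was lost without any 1 of the controls (edgeR adjusted p = 0.0624, 0.0732 and 0.092). Vdac2, an outer membrane channel, fell 1.63-fold and Hspd1, the matrix chaperonin, 1.53-fold. The summed level of the 14 genes was 4753 to 5050 CPM with tyramine and 5662 to 6228 CPM in controls. The largest part of that sum was Hspa9, which did not pass. It averaged 2347 ± 97.8 CPM with tyramine and 2531 ± 284 CPM in controls (SD, n = 3 each). Among 13 tested regulators of mitochondrial gene expression, Esrra and Ppargc1b fell, 0 rose and 11 did not pass (median log2 fold change -0.35). That 2 of 13 fell is close to the 13.3% of all genes tested that fell. Of the 11, Ppargc1a had the lowest log2 fold change of the list (-2.11, edgeR adjusted p = 0.0796). It had 2.01, 4.50 and 0.313 CPM in the tyramine replicates, against 8.92, 8.78 and 11.8 CPM in the control replicates. Every tyramine library lay below every control library for 4 of the 13 regulators, and above for 2. With DESeq2, with limma-voom and without tyramine replicate 3, 1 regulator rose. Esrra, an orphan nuclear receptor that binds promoters of cycle genes in several tissues, had 39.9, 42.3 and 26.3 CPM in the tyramine replicates, against 71.5, 71.2 and 62.5 CPM in the control replicates (log2 fold change -0.92, edgeR adjusted p = 0.00885). Ppargc1b, a coactivator of that receptor, averaged 7.33 ± 0.753 CPM with tyramine and 19.0 ± 2.38 CPM in controls (SD, n = 3 each; edgeR adjusted p = 0.00876, and 0.0604 without control replicate 2). Whether either has a part in the fall of the cycle genes was not tested.

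**Figure D5:**
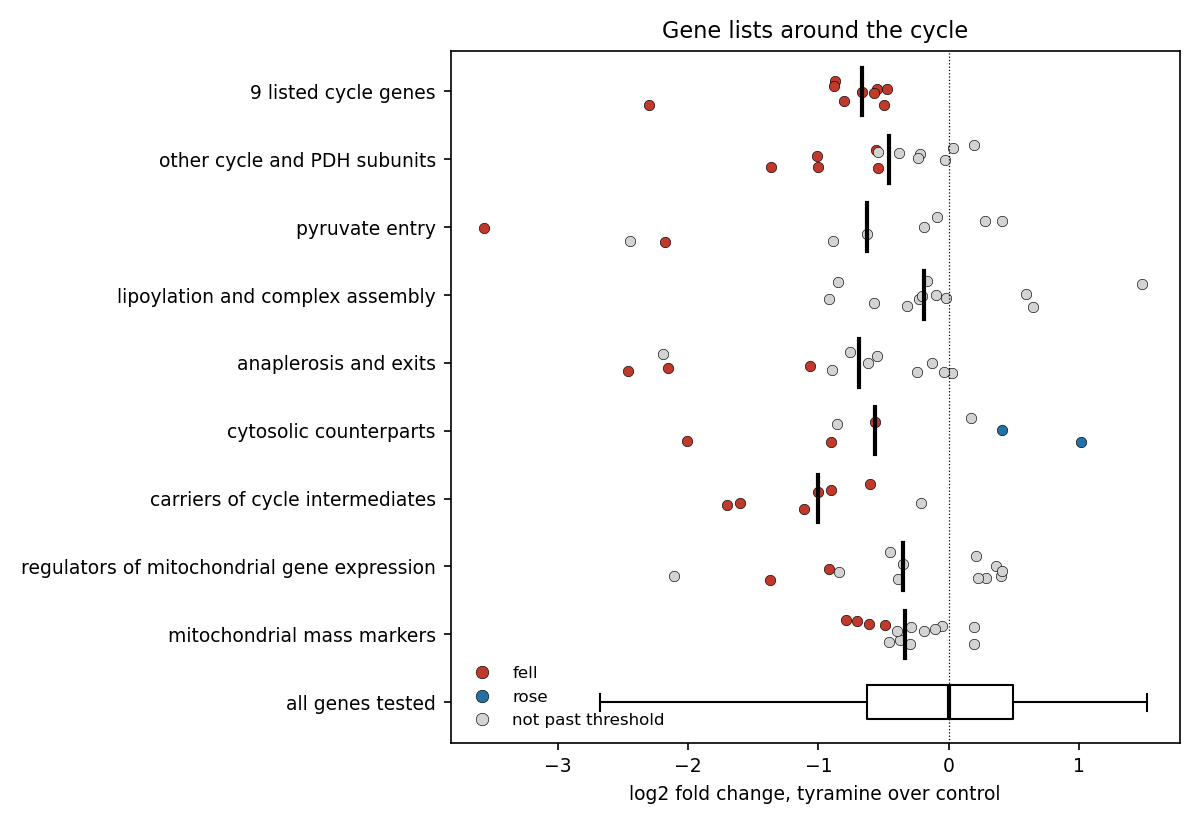
Log2 fold change of tyramine over control for each tested gene of the lists around the cycle, with red for genes that fell, blue for genes that rose and grey for genes not past the threshold; black bars are medians. The box at the bottom shows the quartiles of all 12139 genes tested, with whiskers from percentile 5 (-2.67) to percentile 95 (1.52); the 9 listed cycle genes lie between -2.30 and -0.47.

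The tyramine libraries also differed in markers of cell state. Beside the marker counts stand the shares of all genes tested, 13.3% that fell and 12.5% that rose. All 12 enterocyte markers fell, with summed levels of 3193 to 3335 CPM with tyramine and 16620 to 17930 CPM in controls, and 11 of 12 cycling markers fell, with 204 to 243 CPM with tyramine and 2705 to 3277 CPM in controls. Of 6 markers of squamous or stressed epithelium, 4 were tested and 3 rose (Krt5, Krt6a and Sfn). Krt14 did not pass, and Krt17 and Trp63 were not tested. Their summed levels were 3324 to 3699 CPM with tyramine and 1190 to 1307 CPM in controls. Most of that sum was Sfn, at 2932 ± 281 CPM with tyramine and 1257 ± 62.35 CPM in controls (SD, n = 3 each). The 8 general epithelial markers, in which 4 fell and 2 rose, summed to 14290 to 15800 CPM with tyramine and 15790 to 17260 CPM in controls. Epcam, Krt19, Vil1 and Cdx2 fell, Cdh1 and Krt18 rose, and Krt8 and Cdx1 did not pass. Krt8, the keratin with the highest level of them, averaged 6687 ± 331 CPM with tyramine and 6297 ± 344 CPM in controls, Krt18 3259 ± 123 CPM with tyramine and 2044 ± 65.1 CPM in controls, and Epcam 1054 ± 77.3 CPM with tyramine and 1434 ± 27.2 CPM in controls (SD, n = 3 each). The part of these shifts in the fall of the cycle genes was not tested. Of 5 goblet, 4 Paneth and 6 enteroendocrine markers tested, 3, 1 and 4 fell. Goblet markers summed to 56.0 to 67.9 CPM with tyramine and 110 to 132 CPM in controls, Paneth markers to 16.5 to 39.7 CPM with tyramine and 36.6 to 67.2 CPM in controls, and enteroendocrine markers to 318 to 496 CPM with tyramine and 1069 to 1074 CPM in controls. Ang4 and Tph1 were at 0 in all tyramine libraries and low in controls. Ang4, the Paneth marker that fell, had 2.01, 0.466 and 0.702 CPM in control replicates 1, 2 and 3. Tph1 had 2.96, 4.14 and 2.98 CPM in the same libraries. Markers of other tissues were low, and 0 of those tested passed. The 6 fibroblast markers summed to 9.56 to 10.6 CPM with tyramine and 11.3 to 12.4 CPM in controls, the 4 muscle markers to 17.4 to 23.2 CPM with tyramine and 12.6 to 12.9 CPM in controls, and the 4 immune markers to 1.74 to 3.46 CPM with tyramine and 1.16 to 1.98 CPM in controls. The 4 endothelial markers summed to 0.209 to 0.755 CPM with tyramine and 0.316 to 0.395 CPM in controls, and the 3 erythroid markers to 0 to 0.141 CPM with tyramine and 0 to 3.65 CPM in controls.

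Outside all lists, the 5 genes whose profile over the 6 libraries lay nearest to the mean profile of the 9 cycle genes were Acadl, Lima1, Tbc1d14, Magi1 and App. Likeness was the root mean square difference of mean-centred log2 CPM, which was 0.0413 for Acadl, 0.0536 for Lima1, 0.0578 for Tbc1d14, 0.0615 for Magi1 and 0.0616 for App. Among the cycle genes themselves Ogdh was nearest to that mean profile (0.0643) and Idh2 farthest (0.779). Acadl, a mitochondrial acyl-CoA dehydrogenase of fatty acid oxidation, had 262, 283 and 234 CPM in tyramine replicates 1, 2 and 3, against 481.5, 441.5 and 457 CPM in control replicates 1, 2 and 3. All 5 genes fell, which follows from choosing them by likeness to the mean of 9 genes that fell. The measure is a description over 6 libraries in 2 groups.

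Some of the 9 genes overlap or resemble other genes, and how shared reads were assigned is not stated. Cs overlaps the small nucleolar RNA gene Gm23182, and Idh2 overlaps Gm45203. Pdha1 overlaps Map3k15 on the opposite strand, which had 366 to 553 counts in the tyramine libraries and 866 to 954 in the controls, and Fh1 overlaps Kmo on the opposite strand, which had 0 to 36 counts with tyramine and 105 to 226 in controls. Pdha1 had at least 7193 counts and Fh1 at least 2047 in every library, and whether strand was used in the counting is not stated. Csl, a near-identical retrocopy of Cs, had 5 to 24 counts with tyramine and 2 to 20 in controls, and Pdha2, the testis form of Pdha1, had 0 in all 6 libraries.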

How the data were processed

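RNA was measured in 3 tyramine and 3 control libraries of mouse intestinal organoids. The authors deposited raw counts per gene symbol. The submitters' processing notes name the aligner STAR 2.5.3a and the build mm10. Per the labels' protocols, a stranded mRNA kit with molecular identifiers was used. The counting program, its annotation, its strand setting and any use of the identifiers: not given in the sources used here. Library totals were 29176428 to 32489563 counts with tyramine and 28316372 to 35035955 in controls, and values of 1 to 8 were even in 72.6% to 78.7% of cases, so a count is not read as 1 independent molecule. Replicates differed by more than counting noise (chi-square per degree of freedom 26.9 to 99.9).

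Genes were filtered with filterByExpr (minimum count 10, minimum total 15) with TMM scaling (factors 0.962 to 1.04). The quasi-likelihood test of edgeR 4.0.16 in R 4.3.3, robust, with group as the only term, ran on all 12139 genes kept, with Benjamini-Hochberg adjustment over them and calls at an adjusted p under 0.05. Each SE was obtained as log2 fold change over the root of its F statistic. The code was tested on simulated counts. Alternatives were other size factors and filters, DESeq2 1.42.0, limma-voom (limma 3.58.1), robust estimation off, a replicate block and each library left out. The replicate numbers come from the titles. Positions and exon lengths are from GENCODE M21 on GRCm38, matched by symbol.

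The 9 genes, the lists, the markers and the motifs other than CCAAT and TGACGT were chosen with earlier results of these data known. Named were all 21 cycle genes analysed, up to 4 called genes per further list, smallest p first (or the gene of smallest p), and the 5 nearest profiles among genes whose mean log2 CPM reached 5. Acly, Idh1, Mpc1, Mpc2, Csl, Pdha2, Map3k15, Kmo, Pdk2, Pdk3, Slc25a20 and the epithelial, Ang4 and Tph1 markers were named after their values were seen. The same holds for Slc25a11, Hspa9, Ppargc1a and the markers of squamous or stressed epithelium. A gene of the cycle list and a marker are not reported here.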

Additional observations from a re-analysis of the deposited data

How the results depend on the processing

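The 9 cycle genes had negative log2 fold changes under all 14 alternatives, and 0 rose. All 9 fell under each alternative other than leaving out control replicate 1 (8) or control replicate 2 (7). Leaving out each library in turn gave 7 to 9 falling genes among the 9, 3 to 6 among the 12 other subunits, 1035 to 1797 falling and 934 to 1510 rising among all genes. Idh2 ran from -2.46 to -2.07 on the log2 scale over the alternatives and Dlst from -0.56 to -0.42. DESeq2 called 1883 falling and 1779 rising genes and limma-voom 1916 and 1628. Scaling to library totals alone moved the median of all genes to -0.08. Signs reversed for 2 genes that passed in no setting. Suclg2 had -0.0554 with library totals alone and -0.0894 to 0.086 with a library left out, below 0 without control replicate 1. Pdhx had -0.159 to 0.0453 with a library left out, above 0 without control replicate 2 (0.0439), tyramine replicate 1 (0.0216) or tyramine replicate 3 (0.0453). The cause of these changes was not tested.

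With the replicate number as a block, 9 cycle genes, 5 of the other subunits, 1390 falling and 1204 rising genes were called. Deviations of same-numbered libraries correlated at -0.019, -0.010 and 0.011 across genes, and tyramine replicates 1 and 2 correlated best with another number. All these correlations, same-numbered or not, lay between -0.019 and 0.024. Values so near 0 cannot tell whether same-numbered libraries share a culture or a batch.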
